A study of Rattus norvegicus with 24 samples.

Results

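The vermis is the midline part of the cerebellum, and its messenger RNA was set against that of 5 other rat brain regions. It was represented by the 4 arrays labelled vermis, of 24 arrays in all, chosen by their titles alone. The other 20 arrays held dorsal striatum, ventral striatum, prefrontal cortex, hippocampus, and a midbrain block of substantia nigra and ventral tegmental area (VTA). Each region had 1 array from each of 4 groups of male rats, taken at postnatal day 55 to 65: Sprague-Dawley animals given polychlorinated biphenyls (SD-PCB, 4 rats), Sprague-Dawley animals without them (SD, 8 rats), spontaneously hypertensive rats (SHR, 8 rats) and Wistar-Kyoto rats (WKY, 8 rats). SHR is an inbred strain used as a genetic model of attention deficit hyperactivity disorder, WKY is its parent strain, and the biphenyl exposure is the environmental model. The labels used here do not say whether an array held RNA of 1 rat or of several, so the spread between arrays is not a spread between animals. The 4 vermis arrays came from 4 different groups, so strain and exposure are part of the spread between them.

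The cerebellar cortex holds few cell types in a regular array. Granule cells, the most numerous neurons of the brain, send parallel fibres to Purkinje cells, which carry the only output of the cortex. Bergmann glia wrap the Purkinje cell synapses, and basket, stellate, Golgi and unipolar brush cells make up most of the rest. The cerebellum arises from the hindbrain under En2 and related factors, whereas cortex, hippocampus and striatum arise from the forebrain.

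Gabra6, Pcp2 and Ppp1r17 had the 3 largest positive differences among the genes that passed the filter on mean signal, and their promoter stretches are shown for that reason. Each stretch is the 250 bases before the annotated start, 5′ to 3′ along the gene, from RefSeq on the GRCr8 build. They lie at chr10:27327235-27327484 (minus strand) for Gabra6, chr12:6481308-6481557 (minus strand) for Pcp2 and chr4:86543871-86544120 (plus strand) for Ppp1r17. Capitals mark 2 short strings searched on both strands: AGGTCA, the core recognised by the Purkinje cell receptor encoded by Rora, and TTGGCA, an arm of the site of nuclear factor I (NFI) proteins, which is spelled TGCCAA on the other strand.
Gabra6: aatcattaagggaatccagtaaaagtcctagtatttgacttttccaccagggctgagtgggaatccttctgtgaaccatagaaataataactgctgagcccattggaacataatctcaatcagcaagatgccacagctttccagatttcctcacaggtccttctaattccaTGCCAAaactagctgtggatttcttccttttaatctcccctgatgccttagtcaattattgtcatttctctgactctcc
Pcp2: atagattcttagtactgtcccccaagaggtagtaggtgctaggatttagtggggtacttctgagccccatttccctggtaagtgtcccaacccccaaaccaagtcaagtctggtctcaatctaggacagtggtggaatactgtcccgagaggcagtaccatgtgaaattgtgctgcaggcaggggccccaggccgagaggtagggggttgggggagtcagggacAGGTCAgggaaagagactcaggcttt
Ppp1r17: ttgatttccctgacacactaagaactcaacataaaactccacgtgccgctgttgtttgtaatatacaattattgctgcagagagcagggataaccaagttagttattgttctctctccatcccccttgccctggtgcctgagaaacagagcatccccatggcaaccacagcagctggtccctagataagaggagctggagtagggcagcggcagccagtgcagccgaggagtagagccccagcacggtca
The Gabra6 stretch held TGCCAA, which began 79 bases before the start. The Pcp2 stretch held AGGTCA, which began 26 bases before the start. The Ppp1r17 stretch held neither string of letters. Among all 33469 promoters of the table, 12% held TTGGCA and 14.1% held AGGTCA in the same window on either strand, so a match by itself is common. Of the 15 highest genes, 13 had a promoter in the table.

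Signals are MAS5 values, a brightness per probe set scaled so that each array has the same trimmed mean. They were compared as log2(signal + 1). For each gene the difference is the vermis signal minus the mean of the other 5 regions of the same strain group, averaged over the 4 strain groups, and ± gives its standard error from the limma fit (n = 4 differences). A gene was called where the adjusted p was under 0.05 and the difference was at least 1 on the log2 scale, which is a doubling. Array signals are given in the order SD-PCB, SD, SHR, WKY.

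The vermis arrays stood apart from the rest in their overall shape as well as in single genes. Their correlation over probe sets averaged 0.901 to 0.912 with the other vermis arrays and 0.778 to 0.806 with the arrays of other regions. The other 20 arrays averaged 0.831 to 0.883 with arrays of regions other than their own. The median signal of a vermis array was 1.36, 1.11, 1.21 and 1.33 times the mean of the other 5 medians in SD-PCB, SD, SHR and WKY. A share of 21.8% ± 2.92 (SD, n = 4) of probe sets lay under a signal of 50 in vermis, against region means of 28.4% to 31.2% elsewhere. These values move with the counts below, and their part in them was examined only by repeating the calls under other scalings. In bulk tissue, fewer cells of a type and less RNA per cell cannot be told apart.

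In vermis, 356 genes were higher and 865 lower than in the mean of the other 5 regions, of 9009 genes tested. These are 3.95% and 9.60% of the genes tested, or 13.6% together. Each count of called list members below is to be set beside these shares. Over probe sets 2378 of 15521 were called (15.3%), 978 higher (6.30%) and 1400 lower (9.02%). All 4 vermis arrays lay above all 20 others in 239 genes (2.65%) and below all 20 in 387 (4.30%), and over probe sets the shares were 2.82% and 3.78%. Differences over 4-fold were seen in 78 genes that were higher and 248 that were lower. Centring each array on its own median in place of the deposited scale gave 210 higher and 1534 lower genes and moved the median difference over all genes to -0.39, against -0.07 as deposited; the share of higher genes among calls thus depended on the scale. The share of higher calls also varied with brightness: 55.6% of the called probe sets were higher in the dimmest 25% and 31% in the brightest 25%.

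The 3 marker genes fixed for the label separated the vermis arrays from all others. Gabra6 encodes the α6 subunit of the GABA-A receptor and is a marker of granule cells. Gabra6 gave signals of 19444, 24459, 17285 and 22309.7, against 4.98 to 2297 (median 38.6) on the other 20 arrays. The log2 difference was 8.80 ± 0.78 (adjusted p = 2.4e-09), and the 4 vermis arrays did not overlap with any other. Pcp2 gave signals of 9371, 9650.3, 13406 and 12009, against 5.44 to 668 (median 54.3) on the other 20 arrays. Pcp2 encodes a Purkinje cell protein that binds inhibitory G proteins, and its difference was 7.70 ± 0.55 (adjusted p = 5.4e-11). Car8 gave signals of 7776, 10122, 9303 and 11839, against 73.1 to 901 (median 196) on the other 20 arrays. Car8 encodes a carbonic anhydrase relative without enzyme activity that binds the IP3 receptor of Purkinje cells, and its difference was 5.51 ± 0.26 (adjusted p = 7.1e-14). With the low signals damped by a pseudocount of 16, the differences were 8.19 for Gabra6 and 7.22 for Pcp2, so the size of these differences depends on the low signals outside vermis.

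1 array outside the cerebellum carried more of these transcripts than its neighbours. The WKY prefrontal cortex array had 2297 for Gabra6, against 28.8 to 97 on the other 3 prefrontal arrays. It had 668 for Pcp2, against 29.4 to 76.2, and 901 for Car8, against 189.9 to 336, on the same 3 arrays. These values were 10.3%, 5.56% and 7.61% of the signals of the WKY vermis array. The array was the highest of the 20 for each of the 3 genes and the second highest for Ppp1r17. Neurod1, Cbln1, Atp2a3 and En2 were also above the other 3 prefrontal arrays there, but were not the highest of the 20. Eomes (62.2, against 8.77 to 91.8), Fat2 (55.5, against 1.40 to 107) and Slc1a6 (54.6, against 20.2 to 126) lay within the range of those 3 arrays. Their signals were 3.17%, 10.6% and 6.24% of those of the WKY vermis array. For Fat2 and Slc1a6, shares like those of Gabra6, Pcp2 and Car8 fall within that range, so they cannot show whether such a share was present. Without the WKY prefrontal cortex array, the difference was 9.07 for Gabra6, 7.90 for Pcp2 and 5.61 for Car8, and 2388 probe sets were called. What brought these transcripts to that array was not tested.

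The 15 highest genes that passed the filter were led by Purkinje and granule cell genes. Ppp1r17, which encodes the Purkinje cell substrate of cGMP-dependent protein kinase and inhibits protein phosphatases, differed by 6.77 ± 0.60. Ppp1r17 gave signals of 8243, 8734, 7494 and 9215, against 8.44 to 702 (median 68.2) on the other 20 arrays. Atp2a3, which encodes the calcium pump SERCA3 of the endoplasmic reticulum, differed by 5.41 ± 0.29. Atp2a3 gave signals of 9158, 12037, 10459 and 12594, against 101 to 1506 (median 248) on the other 20 arrays. Cbln1, a protein secreted by granule cells that joins parallel fibres to Purkinje cells, differed by 5.12 ± 0.46. Cbln1 gave signals of 10524, 10186, 8559.8 and 9035, against 36.9 to 2457 (median 282) on the other 20 arrays, and the 4 substantia nigra/VTA arrays were the highest of these. Neurod1 and Pax6, transcription factors of granule cells, differed by 5.05 ± 0.36 and 3.18 ± 0.20. Neurod1 had vermis signals of 3167, 2812, 2427 and 2364, against 15.2 to 310.3 elsewhere.
Among the other genes of this group, Sdc1, a cell surface proteoglycan, differed by 4.91 ± 0.26. Il16, a cytokine gene whose neuronal form is a PDZ scaffold of granule cells, differed by 4.84 ± 0.41, and its highest other signals were those of the 4 hippocampal arrays (up to 513). B3gnt5, a glycosyltransferase, differed by 4.33 ± 0.37, and Pkib, an inhibitor of protein kinase A, by 4.01 ± 0.44. Gdf10, a growth factor of Bergmann glia, differed by 3.47 ± 0.32. Pvalb, the calcium buffer of Purkinje cells and molecular layer interneurons, had vermis signals of 14418, 14019, 15431 and 14013, against 229 to 3966 (median 1551) on the other 20 arrays, a difference of 3.44 ± 0.30. Cep76, a centrosome protein, closed the group at 3.17 ± 0.16. The 4 vermis arrays lay above all 20 others for each of these 15 genes. The largest adjusted p among the 15 was 7.3e-08. Both follow largely from the choice of the 15 as the largest differences among called genes, and add no support. Of the 356 higher genes, 40 had a mean outside vermis under the filter level and passed only through their vermis arrays.

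**Figure D1:**
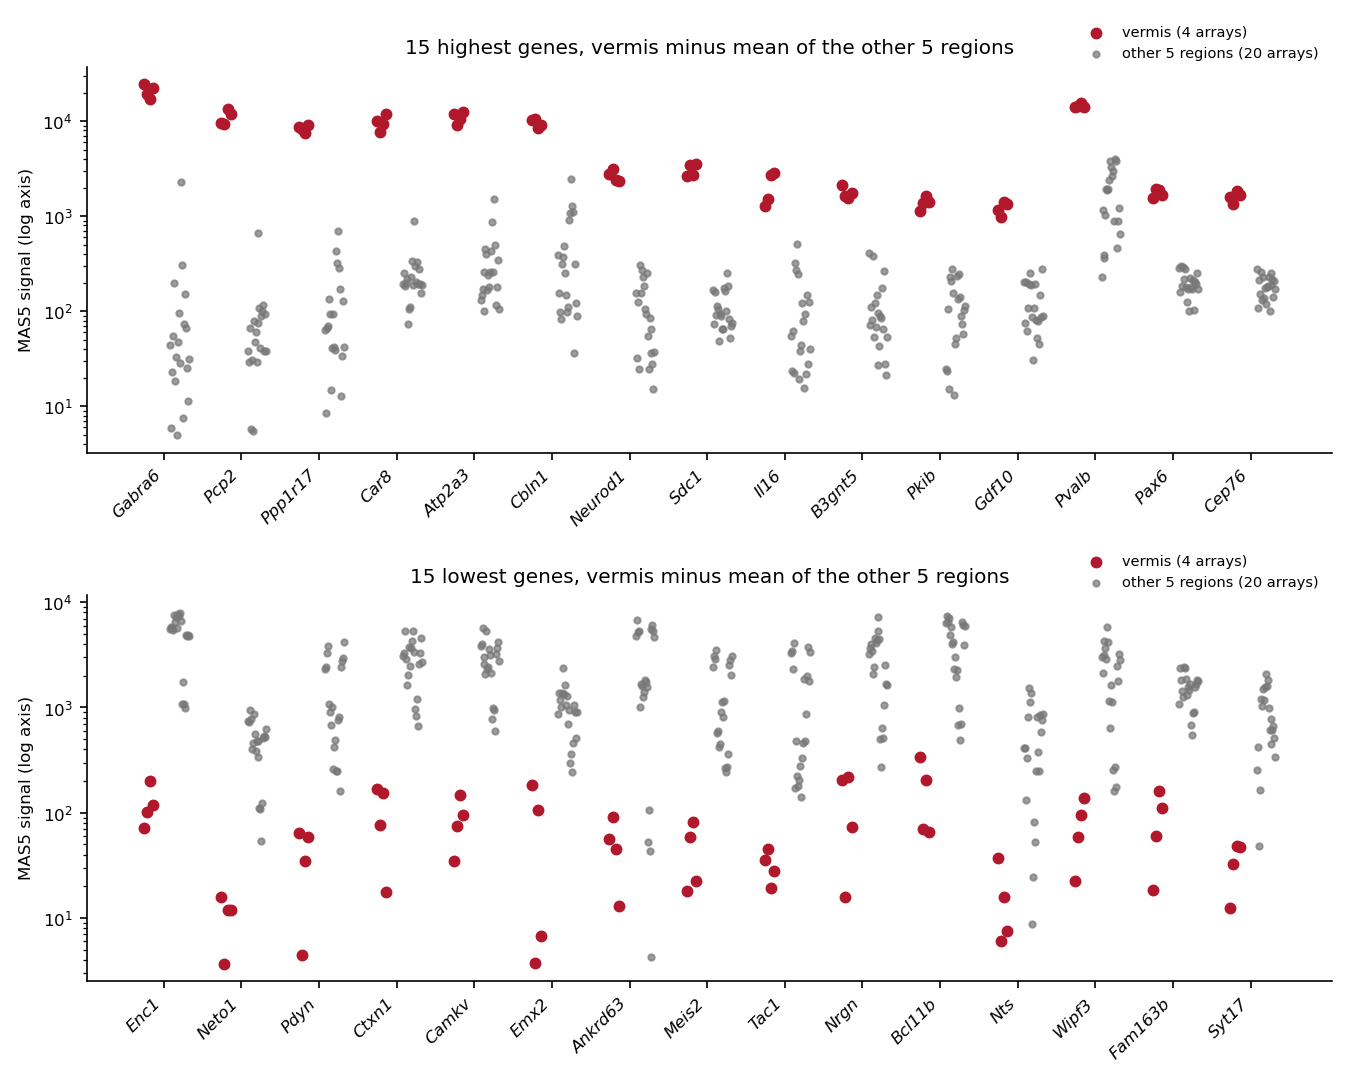
MAS5 signal on a log axis for the 15 highest (top) and 15 lowest (bottom) genes, with the 4 vermis arrays as large red points and the 20 arrays of the other 5 regions as small grey points to their right. Red points lie above every grey point for the highest genes and below every grey point for 13 of the 15 lowest, Ankrd63 and Nts being the 2 exceptions.

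Among cerebellar marker lists, those of Purkinje and granule cells had over 50% of their tested members higher, and those of Bergmann glia and interneurons did not. Tested members are those that passed the filter on mean signal, and for interneurons the contrast depended on that filter. Of 30 Purkinje cell genes listed, 22 were on the array and 17 passed the filter on mean signal; 9 of the 17 were higher and 1 was lower, and the median difference was 1.52, against -0.07 over all genes. 3 of the 9 passed the filter only through their vermis arrays, and without these 3 the share of higher Purkinje cell genes was under 50%. Beside the genes above, the higher ones were Homer3 (2.59), Rora (2.38), Plcb4 (2.09), Calb1 (1.97) and Itpr1 (1.52). The lower one was Necab2, a calcium-binding protein also known from striatum, at -2.71 ± 0.49, and at -1.51 without SD-PCB. Of 27 granule cell genes, 24 were on the array and 16 passed, of which 14 were higher and 0 lower, with a median of 2.32; 3 of the 14 passed the filter only through their vermis arrays. They included Reln (2.32), the secreted guidance protein reelin, Chn2 (2.32), Etv1 (2.05) and Cadps2 (1.96). Etv1, a transcription factor of maturing granule cells, had vermis signals of 19886, 24444, 14919 and 20103, against 2518 to 7718 elsewhere. Of 14 Bergmann glia genes that passed, 5 were higher, 1 of them tested only through its vermis arrays, and 1 was lower. Of 15 interneuron genes on the array 6 passed, of which 1 was higher (Pvalb) and 1 lower (Cdh22). Fitted without the filter, 8 of the 15 interneuron genes were higher and 1 lower, with a median of 1.28. The same fit gave 14 of 22 Purkinje, 18 of 24 granule and 6 of 15 Bergmann glia genes higher. On the Bergmann glia list, Timp4, a protease inhibitor, and Cyp26b1, which degrades retinoic acid, differed by 2.54 ± 0.27 and 1.97 ± 0.30. A2m, a plasma protease inhibitor, differed by 1.42 ± 0.19. The lower member of the Bergmann glia list was Npy, at -2.08 ± 0.19, better known as a peptide of forebrain interneurons.

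Factors of hindbrain patterning and cerebellar transcription gave 7 higher and 1 lower gene of 8 that passed, out of 26 on the array, and 1 of the 7 passed only through its vermis arrays. Meis1 differed by 2.30 ± 0.20 and its relative Meis2 by -4.72 ± 0.23. Meis2 gave 58.6, 18.1, 82 and 22.5 in vermis, against 244 to 3492 elsewhere, while Meis1 gave 1672, 1576, 1956 and 1294, against 113 to 765, so these 2 related homeobox genes lay at opposite ends. Zic4, a zinc finger gene of the cerebellum, was higher by 2.79 ± 0.28. The NFI family members Nfia, Nfib and Nfix were higher by 1.0, 1.24 and 1.13, and the orphan receptor gene Esrrg by 1.51. Nfia missed the threshold without SD-PCB (0.79) and without SHR (0.93). With arrays centred on their median, Nfia (0.68), Nfib (0.92) and Nfix (0.81) all missed it. Otx2, expressed in caudal granule cells and also in choroid plexus, gave 2860.4, 2355, 1154 and 442 in vermis, against 3.52 to 991, a difference of 3.0 ± 0.48, and the WKY vermis array overlapped with the others. The summed signal of 13 choroid plexus and ependyma markers was 39621, 14455, 14905 and 5564 on the vermis arrays, against 2398 to 26233 elsewhere. Otx2 is itself among these markers, so its order and that of the sum are not independent. Both were highest in SD-PCB and lowest in WKY, while SD and SHR ran in opposite order. The part of choroid plexus in the Otx2 difference was not tested.

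Genes confined almost wholly to vermis could fall under the filter, since it used the mean over all 24 arrays. Fitted without the filter, 692 of the 5208 genes under it (13.3%) were higher and 202 (3.88%) lower. In 144 of the 692, each vermis signal was at or above the filter level of 116, and in 42 of these all 4 vermis arrays lay above all 20 others. Both counts were taken among genes chosen for high vermis signals, so nothing is read from them. The genes in the rest of this paragraph were named after their values were seen. En2, the engrailed factor that patterns the midbrain and hindbrain, gave 9616, 7294, 4574 and 3939.8 in vermis, against 0.853 to 783 (median 28.7) elsewhere, a difference of 7.21 ± 0.70 (adjusted p = 2.7e-09). Its mean in substantia nigra/VTA was 552, against 25.3 to 88.8 in the other 4 regions outside vermis. Eomes, the T-box factor that marks unipolar brush cells, gave 1001, 1511, 2104 and 1963, against 6.1 to 130.3 (median 27.2), a difference of 5.78 ± 0.57. Slc1a6, the glutamate transporter EAAT4 of Purkinje cells, gave 1035, 1033, 1334 and 875, against 4.24 to 165 (median 54.1), and Fat2, a large cadherin of granule cells, gave 183, 427, 562 and 524, against 1.4 to 117 (median 12.1). The differences were 4.32 ± 0.57 and 4.48 ± 0.73. Nrk, a kinase gene, and Cnpy1, which acts in fibroblast growth factor signalling at the midbrain boundary in zebrafish, differed by 5.59 ± 0.55 and 4.67 ± 0.61.

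**Figure D2:**
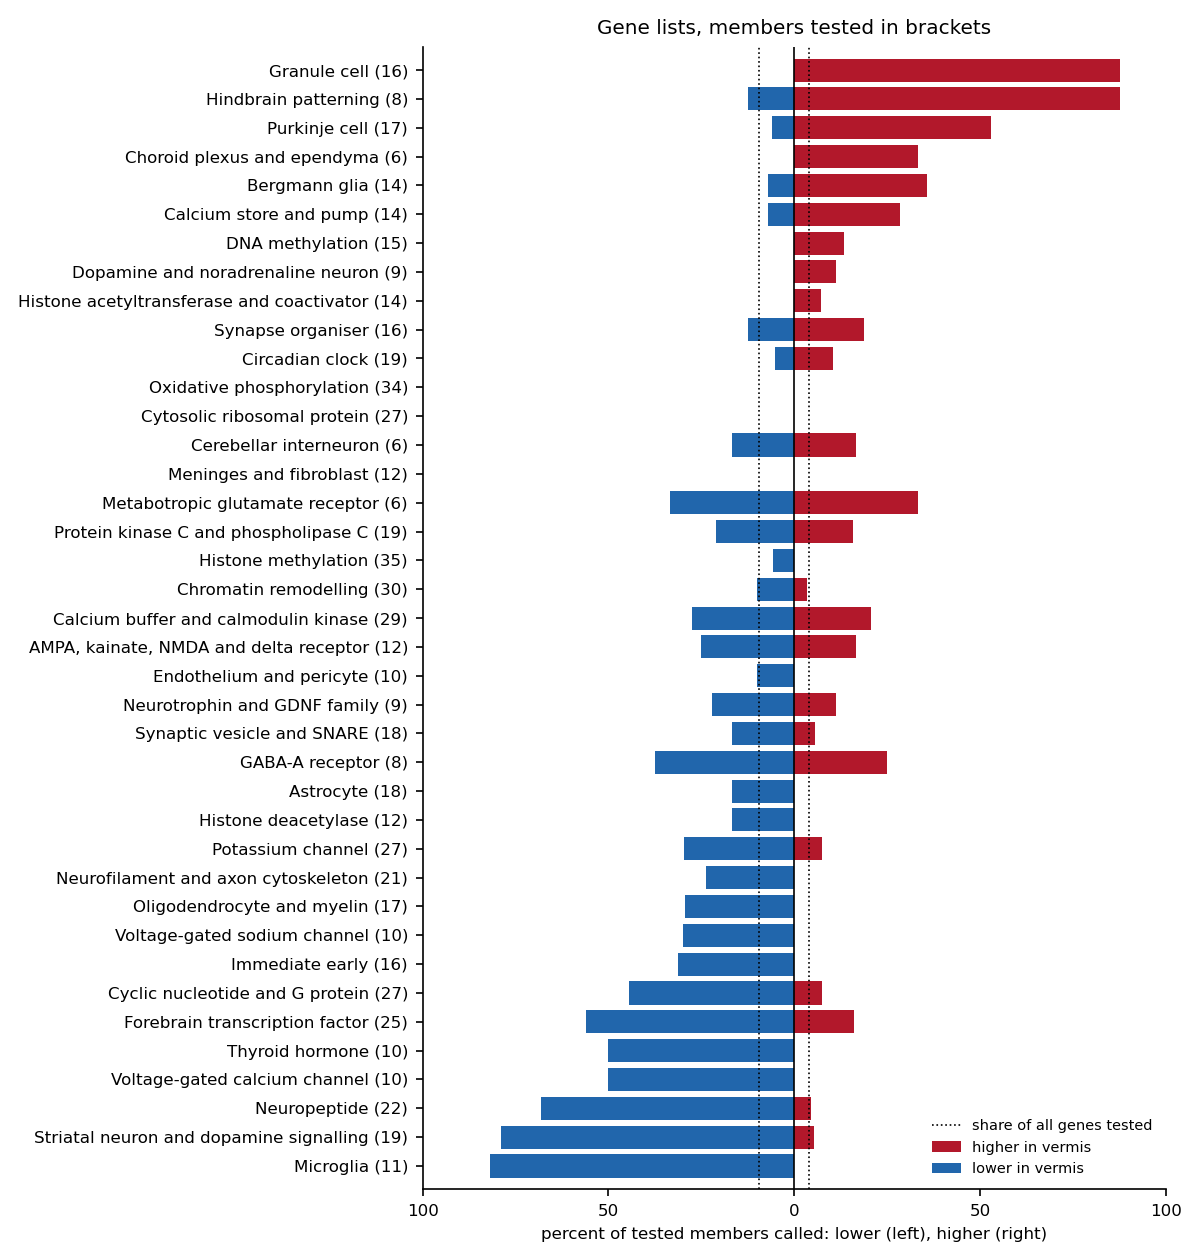
Percent of the tested members of each gene list called higher (red, right) or lower (blue, left) in vermis than in the mean of the other 5 regions, for lists with at least 5 tested members; dotted lines mark the shares of all genes tested (3.95% higher, 9.60% lower). Granule cell and hindbrain lists extend furthest to the right, microglia and striatal lists furthest to the left.

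Many of the lowest genes are known from forebrain neurons. Enc1, an actin-binding protein of the nervous system, gave 101, 71.8, 202 and 119 in vermis, against 990.3 to 7934 (median 5609) elsewhere, a difference of -5.24 ± 0.15 (adjusted p = 1.3e-17). Neto1, an auxiliary subunit of glutamate receptors, differed by -5.20 ± 0.25. The adaptor gene Wipf3 and the synaptotagmin Syt17 differed by -4.48 ± 0.23 and -4.37 ± 0.35. Camkv, a kinase-like calmodulin-binding protein of synapses, differed by -4.96 ± 0.19, and Nrgn, the calmodulin-binding protein neurogranin of cortical, hippocampal and striatal spines, by -4.62 ± 0.35. Nrgn gave 15.9, 205, 217 and 72.4 in vermis, against 273 to 7226 (median 2849) on the other 20 arrays, and the groups did not overlap. Ctxn1 and Fam163b, 2 small neuronal proteins, differed by -5.00 ± 0.27 and -4.38 ± 0.25. All 4 vermis arrays lay below all 20 others in 13 of the 15 lowest genes, which were likewise chosen by their differences, so this count adds no support. The exceptions were Ankrd63, where the 4 substantia nigra/VTA arrays were also low, and Nts, where the prefrontal cortex arrays were low (8.68 at the lowest).

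Forebrain transcription factors gave 14 lower and 4 higher genes of 25 that passed, with a median of -1.27. Emx2, which patterns the cortex and hippocampus, differed by -4.88 ± 0.55, and Bcl11b, which specifies corticospinal and striatal projection neurons, by -4.53 ± 0.25. Bcl11b gave 69.9, 341, 203 and 65.4 in vermis, against 495 to 7383 (median 4097). Dlx1, of forebrain inhibitory neurons, and Pou3f1, of upper cortical layers, differed by -3.64 ± 0.48 and -3.55 ± 0.29. The 4 higher members were Ebf1 (2.18), Bhlhe22 (1.89), Neurod2 (1.54) and Id2 (1.48). The exact permutation p was 0.082 for Bhlhe22 and 0.1 for Neurod2. Neurod2 is also a factor of granule cells, so the name of the list does not cover what each member does.

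Neuropeptide genes were lower in 15 of 22 that passed and higher in 1, with a median of -1.61. Pdyn, the dynorphin precursor, gave 4.42, 64.7, 34.7 and 58.9 in vermis, against 162 to 4158 (median 955), and Tac1, the substance P precursor, gave 44.9, 35.4, 19.2 and 27.8, against 143 to 4138 (median 674). Their differences were -5.10 ± 0.43 and -4.70 ± 0.20. Nts (neurotensin) and Vgf, a secreted granin, differed by -4.49 ± 0.44 and -4.24 ± 0.32. Cck, Sst and Penk, the precursors of cholecystokinin, somatostatin and enkephalin, differed by -3.37 ± 0.46, -2.16 ± 0.13 and -1.03 ± 0.20. Penk missed the threshold without SD-PCB (-0.80) and without SD (-0.99). It was at -0.51 without dorsal striatum and -0.58 without ventral striatum, and its exact permutation p was 0.28. The higher gene was Nppc, the precursor of C-type natriuretic peptide, with 237, 565, 359.6 and 282 in vermis, against 45 to 233 (median 145), a difference of 1.38 ± 0.32.

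Genes of striatal neurons and dopamine signalling were lower in 15 of 19 and higher in 1, with a median of -2.48. 2 of the 5 regions that vermis was set against are striatal. Ankrd63, Rasgrp2, Gng7 and Ptpn5, all enriched in striatal neurons, differed by -4.78 ± 0.36, -3.95 ± 0.42, -3.78 ± 0.35 and -3.72 ± 0.16. The receptor genes Drd1, Drd2 and Adora2a differed by -1.88 ± 0.24, -2.98 ± 0.37 and -3.04 ± 0.50. The exact permutation p was 0.15 for Drd1 and 0.1 for Adora2a, and a second probe set of Drd1 was not called, at -0.83 (adjusted p = 0.15). Drd2 missed the threshold against hippocampus, at -0.64 (adjusted p = 0.31). The higher gene was Cnr1, the cannabinoid receptor carried by parallel and climbing fibre terminals, with 6470.4, 7202, 5693 and 6056 in vermis, against 801 to 5959 (median 2788), and a difference of 1.34 ± 0.16.

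GABA-A receptors are chloride channels of 5 subunits, and the δ subunit pairs with α6 in granule cells to give tonic inhibition. Of 8 tested members, 2 were higher, 1 of which passed the filter only through its vermis arrays, and 3 lower. Gabrd, the δ subunit gene, gave 1459, 1331, 1892 and 2100.2 in vermis, against 22.2 to 973 (median 466), a difference of 2.32 ± 0.23. Gabra5, the α5 subunit gene known from hippocampus, gave 64.4, 152, 57.3 and 82.5, against 366 to 3007 (median 1010.2), a difference of -3.56 ± 0.23. Gabra2 and Gabrb1 were lower, at -2.13 ± 0.18 and -1.30 ± 0.11. Gabrb2, the β2 subunit gene, passed adjusted p at 0.81 ± 0.08 but not the fold threshold, with 9958, 11978, 7697 and 9854 in vermis, against 3416 to 8024 (median 5576). The vermis thus had α6 and δ genes on the high side and α5, α2 and β1 genes on the low side of one family.

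Ionotropic glutamate receptor genes gave 2 higher and 3 lower of 12 tested, where 3.95% of all genes were higher and 9.60% lower. Gria4, the AMPA subunit carried by Bergmann glia and granule cells, gave 4093, 6268, 5440.1 and 5717 in vermis, against 913 to 2308 (median 1337), a difference of 1.96 ± 0.14. Grin2c, the NMDA subunit of mature granule cells, was higher by 1.38 ± 0.22, and Grin2b and Grin2d were lower, at -1.43 ± 0.28 and -1.77 ± 0.24. Grin2c had 627, 444, 1462 and 944 in vermis, against 77 to 661 (median 302), and Grin2b had 42.5, 95.1, 133 and 48.2, against 48.2 to 409 (median 232). A second probe set of Grin1, the subunit shared by NMDA receptors, was higher at 1.13 (adjusted p = 0.0019), while its brightest was not called (-0.78 ± 0.13). Grik5, a kainate subunit, was lower, at -1.10 ± 0.22. Among metabotropic receptors and their scaffolds, Grm5 had the largest difference, at -4.28 ± 0.16, with 208, 537, 288 and 324 in vermis, against 2243 to 13247 (median 6789). Grm4, the presynaptic receptor of parallel fibres, was higher by 1.51 ± 0.26. The scaffold genes went apart: Homer3 was higher by 2.59 ± 0.27 and Homer1 lower, at -1.11 ± 0.09. Grik5 missed the threshold without SHR (-0.81) and Homer1 without SD-PCB (-0.98), and 1 of 3 further probe sets of Homer1 was not called. Homer3 is the form concentrated in Purkinje cell spines, where the scaffold links metabotropic receptors to IP3 receptors.

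Purkinje cells release calcium from internal stores through IP3 receptors after metabotropic receptors activate phospholipase C. Of 14 tested genes of stores and pumps, 4 were higher and 1 lower. The shares over all genes were 3.95% higher and 9.60% lower, here and for the phospholipase list below. Itpr1, the IP3 receptor gene, gave 20870.4, 26752, 16724 and 19803 in vermis, against 2472 to 12078 (median 8375), a difference of 1.52 ± 0.09 (adjusted p = 1.3e-12). Inpp5a, which removes a phosphate from IP3, was higher by 2.02 ± 0.11, and Atp2b3, a plasma membrane calcium pump, by 1.15 ± 0.16. The lower gene was Ryr3, a ryanodine receptor, at -1.13 ± 0.18. In the phospholipase C and protein kinase C list, Plcb4, the phospholipase of many Purkinje cells, was higher by 2.09 ± 0.24, with 2501, 2775, 2382 and 2625 in vermis, against 109 to 1535 (median 563). Gna14 and Dgkg were higher by 1.18 and 1.08, and Dgkb, Plcl1 and Plcd1 were lower, at -1.79, -1.37 and -1.37; 3 of the 19 tested were higher and 4 lower. The calls were lost for Ryr3 without SD-PCB (-0.91), Gna14 narrowly without SHR, and Plcd1 without SD (-0.88). With arrays centred on their median, Atp2b3 (0.83), Dgkg (0.76) and Gna14 (0.86) were no longer called.
Calcium buffers and calmodulin targets split: 6 of 29 were higher and 8 lower, against 3.95% and 9.60% of all genes. Calb1, the calbindin of Purkinje cells, gave 20704, 22802, 17834 and 20129.7 in vermis, against 3073 to 8878 (median 4829), a difference of 1.97 ± 0.15. Calb2, the calretinin of granule and unipolar brush cells, and Hpcal1 were higher by 2.91 ± 0.23 and 2.88 ± 0.15. Camk2a, the α subunit of the forebrain kinase CaMKII, was lower, at -1.31 ± 0.23.

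Voltage-gated calcium channel genes had 5 lower and 0 higher of 10 tested, out of 20 on the array. Fitted without the filter on mean signal, 2 of the 20 were higher and 6 lower. The shares over all genes tested were 9.60% lower and 3.95% higher, here and for the sodium channel count below. The T-type channel gene Cacna1h, and Cacnb1, Cacng3, Cacna2d3 and Cacnb3, which encode auxiliary subunits, differed by -3.58, -3.28, -3.12, -1.28 and -1.10. Cacna1h had 3.31, 54.8, 16.1 and 16.8 in vermis, against 55.1 to 422 (median 202) elsewhere. Of sodium channel genes 3 of 10 were lower: Scn3b, a β subunit, at -3.66 ± 0.13, Fgf13, a channel-binding factor, at -1.72 ± 0.11, and Scn3a at -1.56 ± 0.47. Scn3b had 87.5, 87.3, 139.5 and 135 in vermis, against 519.9 to 3101 (median 1340.0), with no overlap. The calls were lost for Scn3a without WKY (-0.57) and Cacnb3 without SD (-0.99).
Potassium channel genes gave 2 higher and 8 lower of 27, where 3.95% of all genes were higher and 9.60% lower. Kcnc1, the Kv3.1 channel of granule cells and fast-firing neurons, gave 11691, 10197, 10522 and 13125, against 1193 to 6015 (median 2899), a difference of 2.09 ± 0.14. Kcnd2, the Kv4.2 channel, was higher by 1.06 ± 0.09, near the threshold. Kcnj4, Kcnq5, Kcnk2, Kcna5 and Kcna4 were lower, at -3.67, -3.0, -2.90, -2.85 and -2.84, and Kcnab2, Kcns3 and Kcnd1 at -1.56, -1.39 and -1.06. Kcnq5 had 276, 457, 205 and 383 in vermis, against 485 to 5425 (median 3267). The other 17 tested members did not pass. Kcnd2 was at 0.74 with arrays centred on their median. Without WKY, Kcnd2 (0.97) and Kcnd1 (-0.90) missed the threshold, and a second probe set of Kcnab2 was not called, at 0.69 (adjusted p = 0.092).

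**Figure D3:**
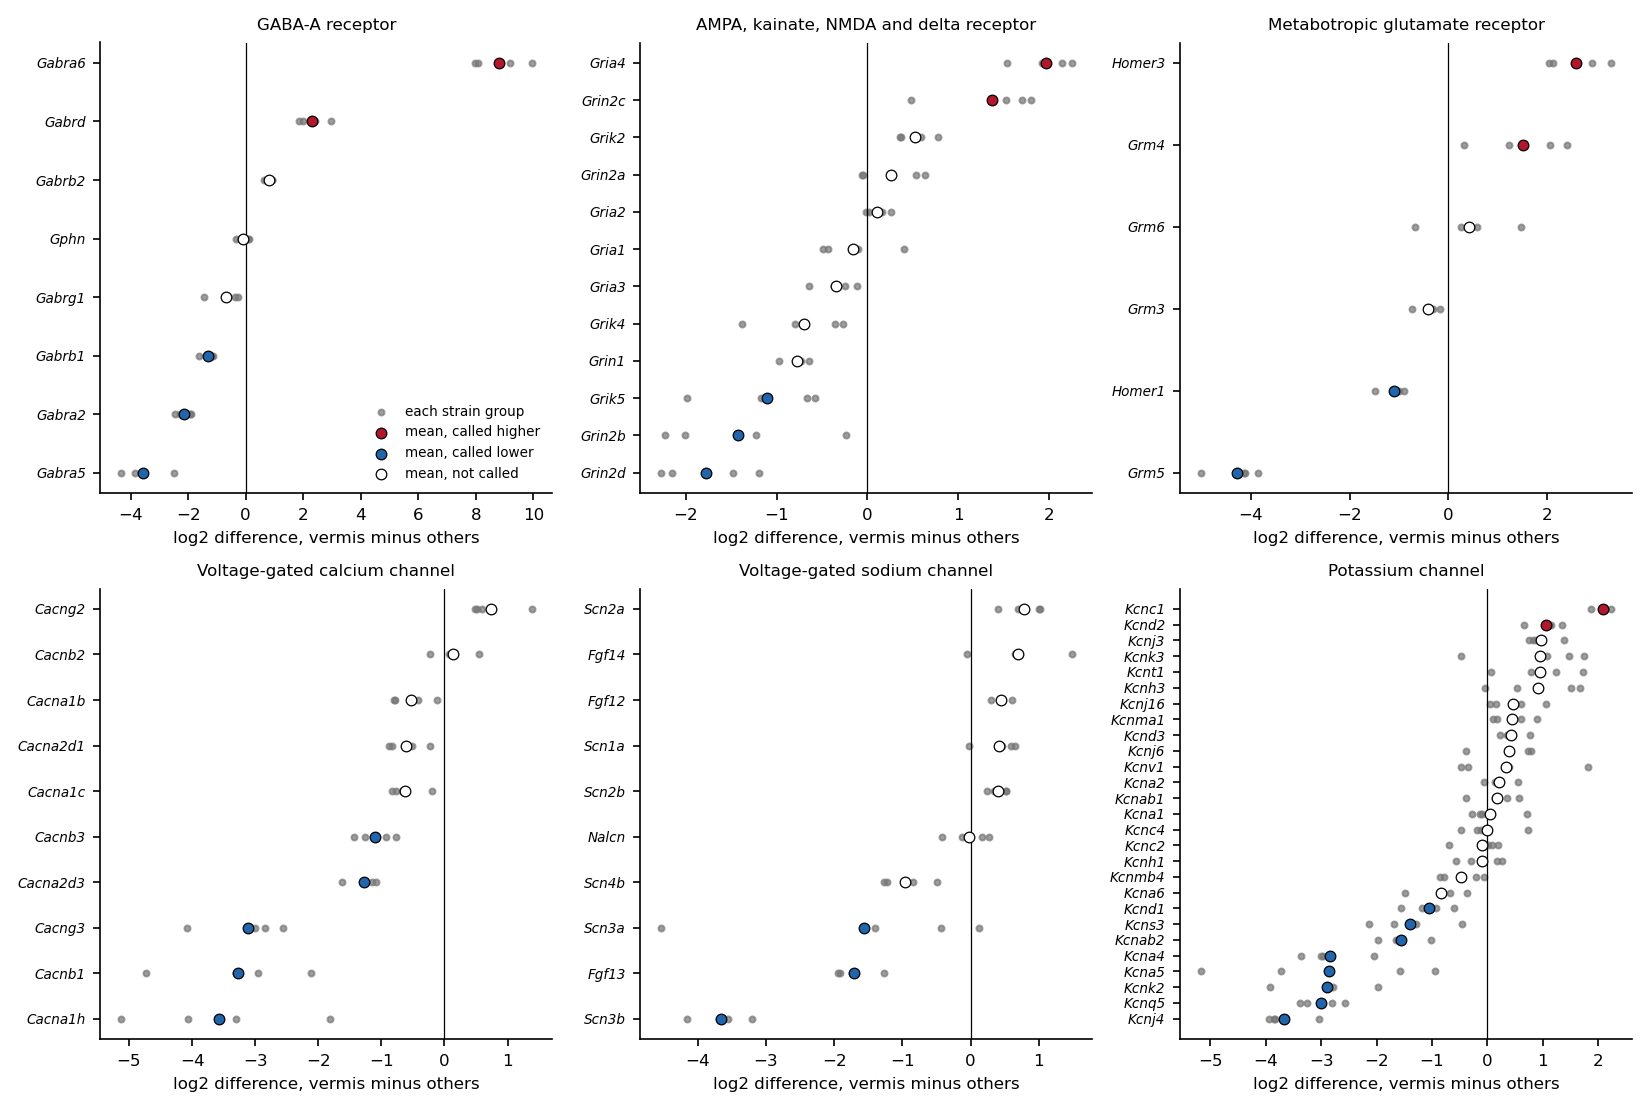
Log2 difference, vermis minus the mean of the other 5 regions, for each tested member of 6 receptor and channel families; small grey points are the 4 strain groups, large points their mean (red called higher, blue called lower, white not called). Gabra6 lies furthest to the right at 8.80 and Grm5 furthest to the left at -4.28.

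At synapses, Cbln1 and its relative Cbln2 lay on opposite sides. Cbln2 gave 174, 268, 262 and 157 in vermis, against 357 to 8474 (median 2441), a difference of -3.68 ± 0.25. Nptx1, a pentraxin that gathers AMPA receptors, was higher by 1.5 ± 0.18, Nrxn3, a neurexin, was higher by 1.04 ± 0.11, and Nlgn1, the neuroligin of excitatory synapses, was lower, at -1.38 ± 0.13. A second, dimmer probe set of Nlgn1 gave 0.10 (adjusted p = 0.8), so the 2 probe sets disagreed. Nrxn3 missed the threshold without SD-PCB (0.98) and without SD (0.96), and was at 0.72 with arrays centred on their median. Of 18 vesicle and SNARE genes 1 was higher, Unc13c (1.76 ± 0.38), a vesicle priming protein of granule cells, and 3 were lower: Syt5 (-3.12 ± 0.27), Slc17a6 (-1.48 ± 0.33) and Syn1 (-1.42 ± 0.13). Over all genes 3.95% were higher and 9.60% lower, and nothing is read from counts as small as these. Slc17a6 was at -0.72 and not called without substantia nigra/VTA, and its exact permutation p was 0.17.
Cyclic nucleotide and G protein genes were lower in 12 of 27 and higher in 2, 1 of which passed the filter only through its vermis arrays, with a median of -0.90. The phosphodiesterase genes Pde1b and Pde2a, the adenylyl cyclase gene Adcy5 and the regulator Rgs14 were lower, at -3.03 ± 0.15, -2.63 ± 0.29, -2.48 ± 0.38 and -2.76 ± 0.21. The higher ones were Adcy8 (1.06 ± 0.27) and Pde9a (1.0 ± 0.20), which lay near the threshold. Without SD, Adcy8 was at 0.93 and Adcy5 at -1.60, and Pde9a was at 0.79 without SD-PCB and just under the threshold without SD. With arrays centred on their median, Adcy8 (0.74) and Pde9a (0.68) were not called. Of the neurotrophin and GDNF family, Ntrk2, the BDNF receptor, was lower, at -1.63 ± 0.16, Gfra2 was lower, at -1.03 ± 0.19 and Ret, the GDNF family receptor kinase, was higher by 2.98 ± 0.24. Gfra2 missed the threshold without SD-PCB (-0.99) and without SD (-0.95).

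Among glial and vascular lists, microglia stood lowest. 9 of 11 tested microglia genes were lower and 0 were higher, with a median of -1.17. Laptm5, a lysosomal membrane protein, gave 83.8, 12.2, 36.3 and 105 in vermis, against 133 to 714 (median 273), a difference of -2.68 ± 0.37. Aif1, which encodes IBA1, gave 244, 87.7, 127 and 155, against 257 to 642 (median 483), a difference of -1.71 ± 0.17. Tmem119, C1qc, P2ry12 and Csf1r were lower, at -1.94, -1.41, -1.17 and -1.05. The summed signal of the 15 microglia genes on the array was 3581 to 5959 in vermis, against 8108 to 14584 on the other 20 arrays, with no overlap. C1qc missed the threshold without SD-PCB (-0.98), and Csf1r without SD-PCB (-0.92) and without SD (-0.90), and a second probe set of P2ry12 was not called, at -0.52 (adjusted p = 0.075).
Astrocyte genes were lower in 3 of 18 (Slc1a2, the transporter GLT-1, -1.60 ± 0.15; Clu -1.17 ± 0.14; Apoe -1.09 ± 0.12) and higher in 0, where 9.60% and 3.95% of all genes were, and nothing is read from that count. Oligodendrocyte and myelin genes were lower in 5 of 17: Sox10 (-2.26), Mag (-1.58), Opalin (-1.51), Mal (-1.40) and Mog (-1.18). Their summed signal overlapped between groups, at 53155 to 71207 in vermis and 39356 to 116929 elsewhere. Of endothelial genes 1 of 10 was lower, Abcb1a at -1.11 ± 0.21, a share like the 9.60% of all genes. Of 12 meningeal genes 0 were called, since none reached the fold threshold (Col3a1 0.80 ± 0.23, Col1a2 0.81 ± 0.28). In limma 4 of the 12 had an adjusted p under 0.05, all 4 on the higher side, and 5 had an unadjusted p under 0.05. Of choroid plexus genes 2 of 6 were higher, Otx2 and Ttr. Ttr, the transthyretin gene of choroid plexus, gave 20978, 5786, 6911 and 221 in vermis, against 24.6 to 14168 (median 474) elsewhere; the difference was 2.81 ± 0.80 (adjusted p = 0.0057), and the exact permutation p was 0.11. Ttr was at 1.45 and no longer called without SD-PCB, and at 4.23 without WKY. Without SD, the threshold was missed by Clu (-0.95), Apoe (-0.96), Mog (-0.99) and Abcb1a (-0.84). A second probe set of Slc1a2 was not called, at -0.34 (adjusted p = 0.45). Brainstem markers summed to 929 to 1952 in vermis, against 7017 to 8843 in substantia nigra/VTA and 842 to 2288 in the other 4 regions. Of the 21 genes in this sum, 1 passed the filter on mean signal, Slc17a6, and the rest lay under it.

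**Figure D4:**
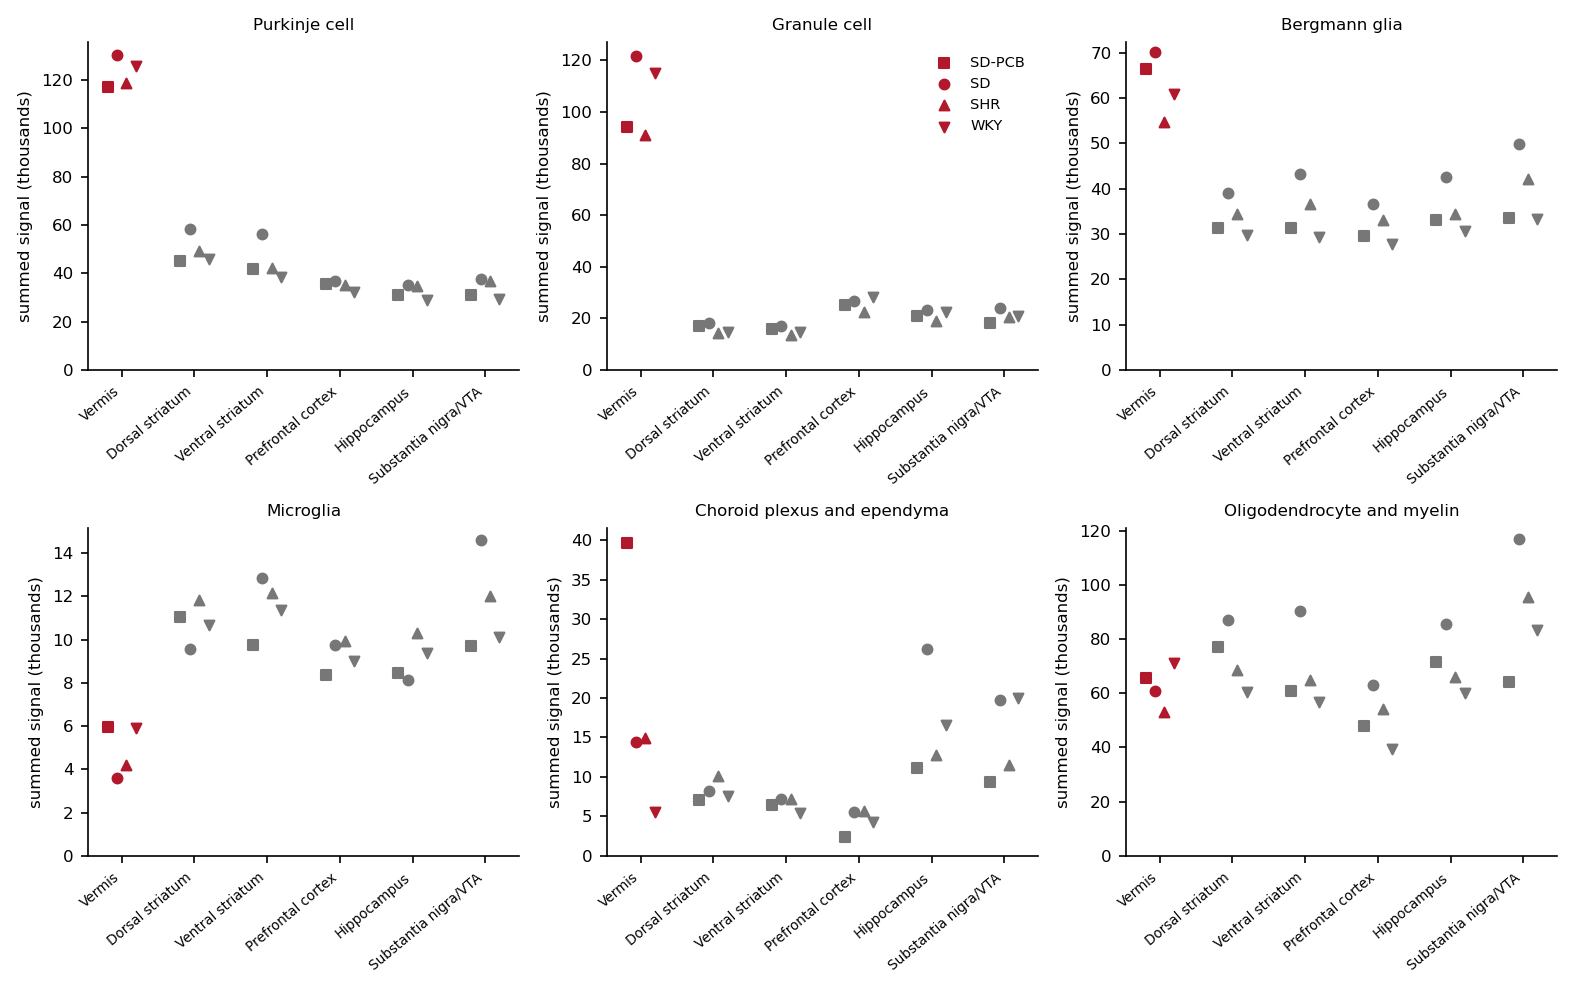
Summed MAS5 signal (axis in units of 1000) of the genes of 6 marker lists on each of the 24 arrays by region, with vermis first in red and 1 marker shape per strain group. Purkinje and granule cell sums are highest in vermis (117049 to 130454 and 91224 to 121557), microglia sums are lowest there, and the choroid plexus sum spreads from 5564 to 39621.

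The study looked in particular at genes of epigenetic regulation. Over 5 such lists 11 of 106 tested members were called (10.4%), near the 13.6% of all genes. Of DNA methylation genes 2 of 15 were higher: Dnmt3a, a de novo methyltransferase, with 632, 964, 504 and 453 in vermis, against 61.1 to 391 (median 232) (1.5 ± 0.29), and Tet1, which oxidises methylcytosine (1.36 ± 0.35). A second, dimmer probe set of Dnmt3a gave 0.18 (adjusted p = 0.67). Of histone deacetylases 2 of 12 were lower, Hdac11 (-1.70 ± 0.12) and Sirt3 (-1.02 ± 0.21), and of 14 acetyltransferases and coactivators 1 was higher, Kat2b (1.20 ± 0.17). Histone methylation genes were lower in 2 of 35, Prmt2 (-1.23 ± 0.43) and Kmt5a (-1.03 ± 0.17). Among 30 chromatin remodelling genes, Chd7, a remodeller needed for granule cell development, was higher, with 2252, 3912, 3899 and 5025 in vermis, against 342 to 1511 (median 1044) (2.06 ± 0.12), and Smarca1, Smarcd3 and Chd3 were lower, at -1.69, -1.39 and -1.14. By list the share called ran between 5.71% and 16.7%. Kat2b was at 0.88 and not called with arrays centred on their median. Without SD, Sirt3 (-0.62), Prmt2 (-0.84) and Kmt5a (-0.79) were no longer called, and Prmt2 was not called without SHR.
Of 10 thyroid hormone genes 5 were lower and 0 higher, including Crym, which binds the hormone (-3.32 ± 0.26), the receptor gene Thrb (-1.79 ± 0.13), Rxrg (-2.95 ± 0.44) and the transporter gene Slco1c1 (-1.05 ± 0.18); Nrgn is also on this list. Of 16 immediate early genes 5 were lower and 0 higher, among them Fosb (-3.27 ± 0.44), Egr2 (-2.41 ± 0.26), Arc (-1.63 ± 0.39) and Egr1 (-1.20 ± 0.15). Beside these thyroid and immediate early counts, 9.60% of all genes were lower and 3.95% higher. Egr1 gave 3938, 3506, 2489 and 3064 in vermis and a mean of 2276 in substantia nigra/VTA, against 6987 to 13101 in the means of the other 4 regions. Of 19 clock genes, Rora and Cry1 were higher (2.38 and 1.02) and Npas2 lower (-2.46), and 1 of the 2 higher ones passed the filter only through its vermis arrays. The calls were lost for Slco1c1 without SD (-0.83) and without WKY (-0.87), for Arc without SHR (-0.81), and for Cry1 without SD (0.89) and narrowly without WKY, Cry1 was at 0.70 with arrays centred on their median, and a second probe set of Thrb was not called, at -0.04 (adjusted p = 0.92). Ribosomal protein and respiratory chain genes gave 0 calls of 27 and 34, since none reached the fold threshold. At an adjusted p under 0.05 in limma, 8 ribosomal protein genes were higher and 5 lower, and 10 respiratory chain genes were higher and 4 lower. An unadjusted p under 0.05 was seen in 17 and 16.

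Against each region alone, vermis had 499 genes higher and 992 lower than dorsal striatum (5.54% and 11% of genes tested). It had 402 higher and 911 lower than ventral striatum (4.46% and 10.1%), and 505 higher and 975 lower than prefrontal cortex (5.61% and 10.8%). It had 375 higher and 935 lower than hippocampus (4.16% and 10.4%), and 451 higher and 997 lower than substantia nigra/VTA (5.01% and 11.1%). In 149 genes (1.65%) vermis was higher than each of the 5 regions, and in 375 genes (4.16%) it was lower than each. Over probe sets these shares were 2.69% and 3.79%. These 5 comparisons share the 4 vermis arrays.
Among genes called against the mean of the 5 regions, substantia nigra/VTA was the region that most often failed to separate from vermis. Of the 356 higher genes 109 did not pass against it, and 49 passed against each of the other 4 regions but not against it. Over everything tested it was not the closest region. Its median absolute log2 difference from vermis was 0.449, against 0.397 for ventral striatum, 0.401 for hippocampus, 0.431 for dorsal striatum and 0.449 for prefrontal cortex. Ret averaged 4219 in vermis and 5196 in substantia nigra/VTA, against 195 to 679.8 in the means of the other 4 regions, and its vermis minus substantia nigra/VTA difference was -0.23 (adjusted p = 0.57). Calb2 averaged 2485 in vermis and 2329 in substantia nigra/VTA, against 139 to 340.2 elsewhere. Of the 865 lower genes, 256 did not pass against substantia nigra/VTA and 151 passed against each of the other 4 but not against it. Ankrd63 averaged 51.1 in vermis and 51.5 in substantia nigra/VTA, against 1386 to 5500.5 in the other 4 means, and Kcnj4 gave 14 to 33.5 on the vermis arrays and averaged 23.9 in substantia nigra/VTA, against 359 to 634. Gng7 showed the same order, with 43.8 in vermis, 70.6 in substantia nigra/VTA and 165 to 3165 in the other 4 means.
Fewer genes set vermis apart from all regions but one of the others. 18 of the higher genes failed only against hippocampus, among them Homer3 (449 in hippocampus, against 92.3 to 124 in the means of the other 4) and Nppc (0.92, adjusted p = 0.088). 16 failed only against dorsal striatum, among them Itpr1, with a mean of 10976 there. 9 failed only against prefrontal cortex and 6 only against ventral striatum. A failed threshold does not show that the 2 regions were alike.

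The design also allows the vermis part of the strain and exposure differences to be asked, with 1 vermis array per group. For SD-PCB minus SD, 490 probe sets (3.16%) had a difference in vermis that departed from the mean of the same difference in the other 5 regions, and for SHR minus WKY 221 did (1.42%). In genes these were 292 (3.24%), 203 higher and 89 lower, and 126 (1.40%), 69 higher and 57 lower. There is no replicate of vermis within a strain group, so the spread comes from the other regions and the p-values describe these arrays and not the strains. The calls gathered where a vermis signal was low: 13.1% of probe sets were called where the lower of the 2 vermis signals was under 116, against 1.72% elsewhere for SD-PCB minus SD, and 10.8% against 0.482% for SHR minus WKY. The smallest p-values for SD-PCB minus SD belonged to Pdlim7 (156 in SD-PCB and 7.11 in SD vermis), Emx2 (3.71 and 185), Dnajc1 (302 and 19.2), Shisa7 (111 and 11.9) and Rerg (2.64 and 131). Those for SHR minus WKY belonged to Rasgrp2 (225 in SHR and 7.62 in WKY vermis), Qpct (142 and 3.64), Emx2 (107 and 6.72), Shisa7 (21.4 and 120.1) and Stk32c (10.8 and 125). In each of these pairs the lower vermis signal was at most 21.4.
Cytosolic ribosomal protein genes were higher in the vermis part of SD-PCB minus SD in 12 of 27 tested, with 0 lower, where 3.24% of all genes were called. Their median log2 difference was 0.28 in vermis and -0.44 in the mean of the other 5 regions. The vermis part was above 0 in 26 of 27, with a median of 0.69, against 0.03 over all genes. For SHR minus WKY the signs were as uniform the other way, with 1 of 27 above 0, where the median over all genes was -0.07. Rpl19 had 14167 in SD-PCB vermis, against 9621 in SD vermis, and its means over the other 5 regions were 7815 in SD-PCB and 12654 in SD. Rps29 had 18708 in SD-PCB vermis, against 14421 in SD vermis, and its means over the other 5 regions were 10753 in SD-PCB and 18861 in SD. For SHR minus WKY 0 of 27 passed in limma, 9 had an unadjusted p under 0.05, and the median of the vermis part was -0.38. The median signals of the SD-PCB arrays outside vermis were 89.0 to 94.8, against 131 to 184 for SD, while those of vermis were 126 in SD-PCB and 178 in SD. Centring each array on its median left 1 of the 27 genes called and moved the median over all genes to -0.25, quantile normalization left 4, and cyclic loess left 9. The part of array shape in this difference was not tested beyond these scalings.

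**Figure D5:**
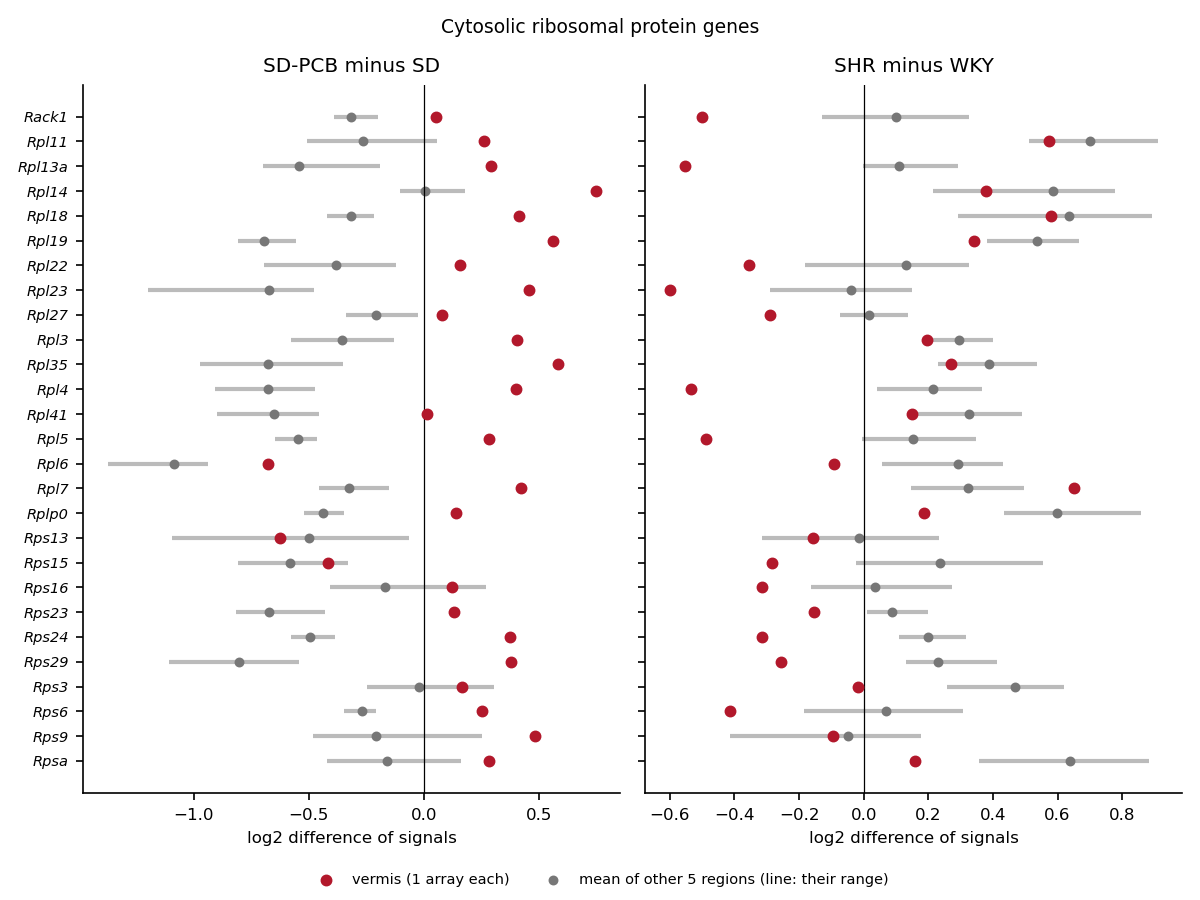
Log2 difference of signals for 27 cytosolic ribosomal protein genes, SD-PCB minus SD (left) and SHR minus WKY (right); red points are vermis, from 1 array per group, grey points the mean of the other 5 regions, and bars their range. On the left 26 of the 27 red points lie to the right of the grey mean, and on the right 1 of the 27 does.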

How the data were processed

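Deposited were intensity values, 1 for each probe set on each of 24 Affymetrix Rat RAE 230 2.0 arrays; per the submitters' processing notes the values are MAS5 signals, with the version not given in the sources used here. Per the labels, RNA was purified on RNeasy columns and labelled with the Ovation kit. The 2% trimmed mean of each array is near 500.2. Detection calls, scan dates and batches were not used here, so no probe set could be called above or below background; precision is limited by how few arrays there were.

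Of 31099 probe sets, 57 controls were set aside. The platform annotation gave 1 symbol to 20826 of the rest, several to 436 and none to 9780; 20758 matched a gene of the GRCr8 RefSeq annotation by identifier. log2(signal + 1) values of the 15521 probe sets at or above the median mean (a signal of 116) went into a linear model in limma 3.58.1 (R 4.3.3) with region and strain group as terms, 15 residual degrees of freedom and a trend on mean signal. Tests were two-sided and moderated, and p-values were adjusted by Benjamini-Hochberg across every probe set tested. The size of a fold change of a dim gene on this scale depends on its low signals and on the pseudocount. Strain group is a block because the 6 arrays of a group share strain and exposure; no label ties arrays to single animals. The vermis part of strain differences used 12 residual degrees of freedom. A gene is its brightest probe set with 1 symbol. The chain was tested on simulated data.

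The vermis, the 41 gene lists (992 genes, 844 on the array, 613 tested) and the tests were chosen with earlier results of these data known. Genes named are the 3 markers, the 15 highest and 15 lowest called genes with 1 sign in all 4 strain groups, up to 4 called members per list (where 0 were called, the 2 with the smallest p), members of receptor and channel families, the 5 smallest p-values of each strain term, and the 5 called genes with the widest range over strain groups. Necab2, Ebf1, Bhlhe22, Neurod2, Id2, A2m, Calb1, Nppc, Cnr1, Ryr3, Adcy8, Pde9a, Gna14, Dgkg, Nrxn3, Mog, Slco1c1, Esrrg, Nfia, Nfib, Nfix, Cck, Sst, Penk, Drd1, Drd2, Adora2a, Reln, Etv1, Chn2, Cadps2, Camk2a, P2ry12, Csf1r, Rpl19, Rps29 and the genes under the filter were named after their values were seen. Alternatives covered scaling, pseudocount, filter, trend, array weights, the block, left-out regions and strain groups, and thresholds. Figures used matplotlib 3.10.9.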

Additional observations from a re-analysis of the deposited data

Results flagged for a closer look

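In each of the following 12 genes, 1 of the 4 strain groups lay far from the other 3 in its vermis minus other regions difference (log2), by Dixon's test on 4 values. Chance flags about 1 in 20 groups, which for 179 genes is about 9, so 12 is near the number that chance gives. The SD-PCB difference stood apart for Necab2 (-6.31, with the nearest at -1.79), Rerg (-6.85, nearest -2.16), Dcx (-3.74, nearest -1.07), C1qc (-2.67, nearest -1.10), Egr1 (-0.88, nearest -1.29) and Itpr1 (1.33, nearest 1.55). The SD difference stood apart for Pdlim7 (-5.71, nearest -1.29), Dnajc1 (-4.18, nearest -0.47, with a mean over the other 3 groups of -0.14) and Ret (3.43, nearest 2.87). The SHR difference stood apart for Npy (-1.49, nearest -2.22), Kcnj4 (-3.04, nearest -3.84) and Nfix (0.76, nearest 1.25).

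The vermis part of a strain or exposure difference departed from that of the other 5 regions in limma for these genes, chosen as the smallest p-values. For SD-PCB minus SD it was 4.42 for Pdlim7, -5.67 for Emx2, 4.27 for Dnajc1, 3.26 for Shisa7 and -5.36 for Rerg. For SHR minus WKY it was 4.55 for Rasgrp2, 5.36 for Qpct, 4.25 for Emx2, -2.94 for Shisa7 and -3.13 for Stk32c. Each rests on 1 vermis array per group. Over all strain groups, the difference from the other regions was -1.10 for Pdlim7 without SD, -1.82 for Rerg without SD-PCB and -1.81 for Qpct without WKY.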

How the results depend on the processing

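For the 179 genes named, 3535 of 3676 pairs of gene and setting kept direction and side of the threshold, 138 kept direction but lost the call, 3 gained it and 0 reversed; 43 called genes lost the call in at least 1 setting. The count of 2378 probe sets called was 5483 with no filter, 996 in the upper 25% by signal, 1221 with 1 probe set per gene, 7588 with no fold threshold, 581 at a log2 of at least 2 and 4144 with a filter on the highest region mean, which was added after seeing the data. In the same order, the 978 higher became 3697, 300, 356, 3512, 180 and 2474. The 1400 lower became 696 in the upper 25%, 865 per gene, 4076 with no fold threshold and 401 at a log2 of at least 2. Centring on the array median gave 565 higher and 2445 lower. The 418 probe sets higher than each region became 230 with centring, 634 with no filter, 126 in the upper 25%, 149 per gene, 1162 with no fold threshold, 60 at a log2 of at least 2 and 693 with the added filter; the 589 lower than each became 1066 with centring, 322, 375, 1431 and 135 in the settings that apply. The replicate block in the main fit pairs arrays by strain group; pairing by animal is not in the labels. With no replicate block, 220 probe sets were higher than each region; it moved no other count by over 1.5 times. Leaving out 1 strain group gave 2279 to 2516 called, 891 to 1067 higher, 1388 to 1472 lower, 316 to 441 higher than each region and 526 to 582 lower than each. For the vermis part of SHR minus WKY, 221 became 113 with a pseudocount of 16, 15 with one of 64 (added after seeing the data), 52 in the upper 25%, 753 with array weights, 137 per gene and 102 without ventral striatum. For SD-PCB minus SD, 490 became 178 in the upper 25%, 856 with array weights, 323 per gene, 310 without ventral striatum and 235 with a pseudocount of 64. The cause of these changes was not tested. The median differences of 15 lists, among them potassium channels, ribosomal proteins and the 4 lists on acetyltransferases, DNA methylation, histone methylation and remodelling, were above 0 as deposited and below 0 with median centring. Values near the floor of the array set the size of the largest differences.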

Other observations

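Genes of neurofilaments and the axon cytoskeleton were lower in vermis in 5 of 21 tested and higher in 0, against 9.60% and 3.95% of all genes. Basp1, a growth cone protein, differed by -1.83 ± 0.31, Dcx, the doublecortin of migrating neurons, by -1.53 ± 0.31, Map1a by -1.43 ± 0.15 and Tubb3 by -1.27 ± 0.15. Dcx was at -0.79 and no longer called without SD-PCB. Of 6 tested genes of cerebellar interneurons, Pvalb was higher and Cdh22, a cadherin, was lower at -1.26 ± 0.19, while a second probe set of Cdh22 gave 0.36 (adjusted p = 0.25). Without SD, Cdh22 was at -0.88 and no longer called.

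Among genes under the filter, and named after their values were seen, several developmental factors had high vermis signals. Tfap2b, a factor of cerebellar inhibitory neurons, gave 491, 1202, 1091 and 681 in vermis, against 5.66 to 351 (median 82.6) on the other 20 arrays. Irx3, a homeobox factor, gave 410.2, 559, 839 and 569, against 3.32 to 505 (median 25.8), and Mab21l1 gave 448, 555, 529 and 281, against 7.07 to 249 (median 26.7). Tff3, a secreted trefoil peptide, gave 801, 919, 1942 and 329, against 8.73 to 178 (median 44.9).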
